A study of Mus musculus with 28 samples.

Results

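The 6 genes Pdgfd, Mmp13, Mmp12, Birc2, Birc3 and Yap1 lie within a short stretch of proximal chromosome 9 of the mouse, with other genes between them, and their copy number was followed here in 24 mouse tumours. They were chosen by measured copy number, which in 1 of these tumours was high at some of them, so their values in these tumours are given as a description, with no test. They are 6 of the 52 protein-coding genes between 3 and 15 Mb of chromosome 9 (GRCm38), out of 20665 autosomal protein-coding genes that were scored. The label "amplicon genes" held for 3 of the 6: Pdgfd, Mmp13 and Mmp12 lay inside an amplified segment of 1 tumour, and Birc2, Birc3 and Yap1 lay in 0 amplified segments.

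Exome DNA, the captured protein-coding part of the genome, was sequenced from tumours of mice with the genotype p53 AD/- or p53 RP/-. Both genotypes thus share an allele lacking p53. The other allele encodes a p53 that forms dimers in AD animals and stays monomeric in RP animals, where the normal protein is a tetramer. All mice were of a mixed BALB/C and C57BL6 strain, at 50% each, and their age is not given in the sources used here. The 4 groups were 7 AD thymic lymphomas, 7 RP thymic lymphomas, 5 AD sarcomas and 5 RP sarcomas, collected at the animals' end point, and tumours are numbered within a group in sample order. The question the series poses is how genomic alterations differ between tumours with dimeric and with monomeric p53.

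Each value is a log2 copy ratio of tumour over comparison DNA, where 0 means no difference, and a gene takes the mean of its overlapping segments, weighted by the overlap. A value of at least 0.3 was called gained, of at least 1 amplified, and of -0.3 or below lost. Each tumour had 211948 to 212450 markers, which are measured positions and not reads, in 59 to 517 segments; read depth is unknown. The engineered Trp53 gene stood between -0.23 and 0.36 over the 24 tumours. The T-cell receptor beta locus, which T cells cut and rejoin, had a mean of -0.3 or less in 13 of the 14 lymphomas, which are labelled as tumours of the thymus, and in 0 of the 10 sarcomas.

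Pdgfd encodes PDGF-D, a growth factor that binds the PDGF receptor beta. Mmp13 (collagenase 3) and Mmp12 (macrophage elastase) are secreted matrix metalloproteinases, enzymes that cut collagen and elastin, and they stand at one end of a cluster of such genes. Birc2 and Birc3 encode cIAP1 and cIAP2, ubiquitin ligases of TNF receptor signalling that restrain cell death, and Yap1 encodes the transcriptional co-activator that the Hippo kinases hold in check. The stretch with Birc2, Birc3 and Yap1 is known as an amplicon of mouse and human cancers.

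The start regions of the genes show how the amplified segment divides them. The RefSeq windows of GRCm38.p6 run from 250 bases before a start site to 50 bases after it, and all 6 genes matched one. They are shown for Pdgfd, Mmp13 and Mmp12, the 3 members that the amplified segment reached, and for Yap1 as a member beyond it. Capitals mark the letters of 3 motifs searched on both strands. The first, TGANTCA, is that of the AP-1 transcription factor. The next is the TATA box, spelled TATAAA, from which many inducible genes start. The last is GGAATG, the motif of the TEAD proteins through which Yap1 reaches DNA. Positions count from the start site as 0 to a motif's first base, and no marked motif overlaps another.
Pdgfd, chr9:6168236-6168535, plus strand: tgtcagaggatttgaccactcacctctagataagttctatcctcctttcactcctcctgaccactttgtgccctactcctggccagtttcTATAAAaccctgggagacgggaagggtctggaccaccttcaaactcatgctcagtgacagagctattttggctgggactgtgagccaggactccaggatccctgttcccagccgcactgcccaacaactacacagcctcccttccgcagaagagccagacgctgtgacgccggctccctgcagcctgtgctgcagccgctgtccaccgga
Mmp13, chr9:7272264-7272563, plus strand: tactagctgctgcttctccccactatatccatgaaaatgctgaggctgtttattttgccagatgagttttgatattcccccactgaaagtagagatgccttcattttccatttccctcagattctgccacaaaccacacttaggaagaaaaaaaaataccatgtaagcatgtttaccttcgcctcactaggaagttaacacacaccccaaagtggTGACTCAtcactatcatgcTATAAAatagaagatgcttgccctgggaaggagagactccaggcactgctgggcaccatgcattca
Mmp12, chr9:7347124-7347423, plus strand: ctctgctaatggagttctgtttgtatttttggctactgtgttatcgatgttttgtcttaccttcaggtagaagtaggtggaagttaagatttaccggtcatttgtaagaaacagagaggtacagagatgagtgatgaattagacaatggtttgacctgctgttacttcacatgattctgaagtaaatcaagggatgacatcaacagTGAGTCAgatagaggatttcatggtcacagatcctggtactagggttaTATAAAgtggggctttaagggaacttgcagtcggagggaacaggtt
Yap1, chr9:8004547-8004846, minus strand: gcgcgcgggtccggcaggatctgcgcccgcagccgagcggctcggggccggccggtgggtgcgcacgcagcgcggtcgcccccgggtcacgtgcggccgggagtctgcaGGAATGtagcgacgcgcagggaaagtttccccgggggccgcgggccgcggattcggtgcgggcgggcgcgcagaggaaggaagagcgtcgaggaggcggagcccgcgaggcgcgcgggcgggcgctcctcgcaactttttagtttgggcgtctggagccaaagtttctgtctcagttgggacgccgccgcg

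The Pdgfd window ended 259 bases before the first marker of the amplified segment, in a stretch with no segment, so its copy number was not measured. It held a TATA match at -160. The Mmp13 window lay inside the amplified segment, with an AP-1 match at -35 and a TATA match at -16. The Mmp12 window shown, that of the second of its RefSeq start sites, also lay inside, with an AP-1 match at -44 and a TATA match at 4; the window of the first start site, 7344147 to 7344446, held 0 of the motifs. The Yap1 window lay outside, with a TEAD match at -141 and a GC content of 74%, against 43.7% for Mmp13 and a median of 52.7% over all windows. In Birc2 and Birc3, 0 of the motifs were found. Of the 10 Mmp genes of the cluster, 8 had an AP-1 match in a window and 9 a TATA match. Of the 4 other coding genes in the amplified segment, 0 had an AP-1 match, though the Pdgfd window itself lay before the first marker. Among all 32851 windows, 7.81% held the AP-1 letters, 13.6% the TATA letters and 14.7% the TEAD letters. These are shares of single windows, whereas Mmp12 and Mmp7 each had a second window, so the gene counts are not a like measure. Against a share of 7.81%, 0 of 4 genes shows no difference. A match is a stretch of letters only, and binding was not measured.

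The amplified segment was found in AD thymic lymphoma 5. It ran from 6168794 to 7358226 on chromosome 9, a length of 1.19 Mb with 132 markers, at a log2 copy ratio of 3.35. If the base is 2, which the file headers do not state, this is 10.2 times the comparison DNA. The segment on its left (3000921 to 5358724, 124 markers) stood at -0.062 and the segment on its right (7368240 to 32754212, 1985 markers) at -0.079, so that the values stepped up by 3.41 and down by 3.43. No other tumour had a segment boundary between 3.4 and 15 Mb, which makes 1 of 24.

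**Figure D1:**
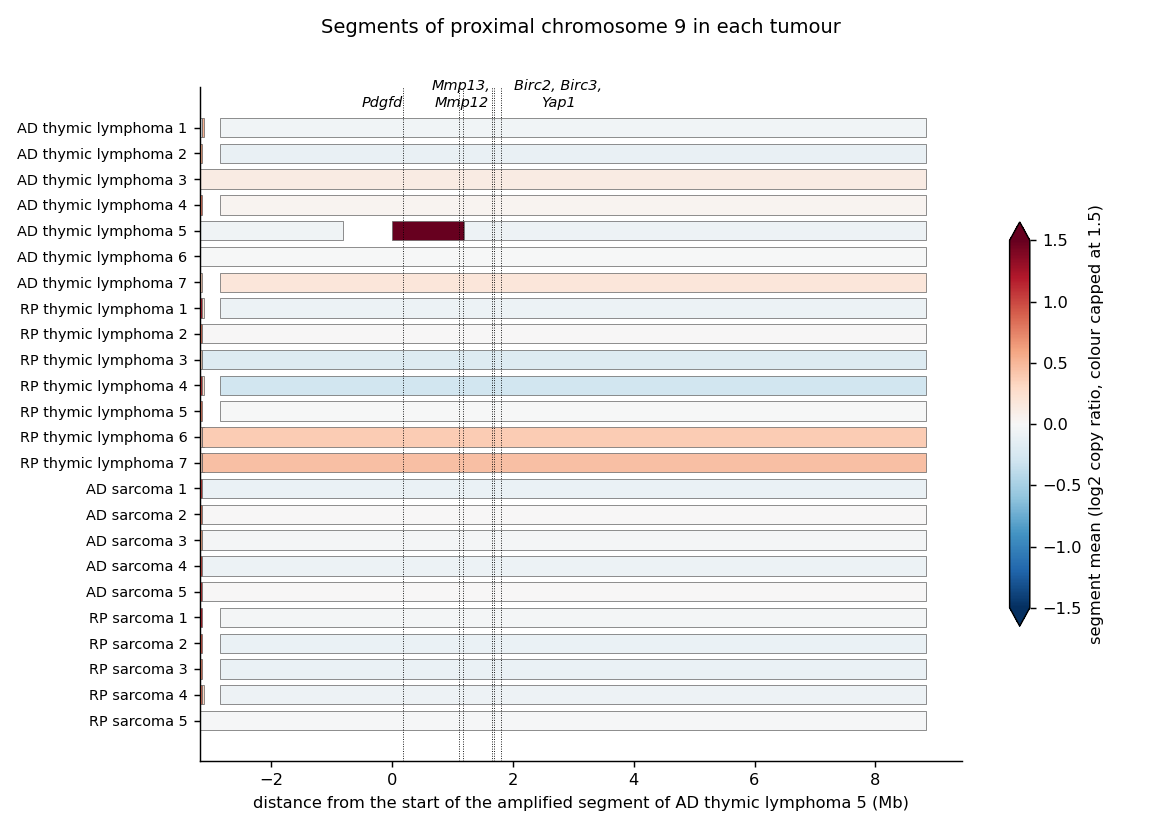
Segments of proximal chromosome 9 in each of the 24 tumours, drawn by distance from the start of the amplified segment (x axis, Mb) and coloured by segment mean (log2 copy ratio, colour capped at 1.5). Dotted lines mark the middle of each of the 6 genes. Stretches without an outlined bar have no segment, while pale outlined bars are segments with little difference. AD thymic lymphoma 5 is the tumour with a block, 1.19 Mb long, at 3.35, while each of the other 23 tumours has 1 colour across all 6 genes.

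The ends of the amplified segment are known with unequal precision. On the right, 10.01 kb without a segment separated it from its neighbour. On the left, this unmeasured stretch was 810 kb, from 5358725 to 6168793. The amplified DNA may therefore be between 1.19 and 2.01 Mb long. The left end fell 431 bases past the start of Pdgfd, a gene of 366 kb, and 99.9% of Pdgfd lay inside. The nearest coding gene outside the segment on that side was Casp12, which encodes an inflammatory caspase and ends 796 kb before the segment. Part of Casp12 (5345442 to 5373034) lay in the 810 kb stretch, so whether the amplified DNA reached it is not known. Its measured part stood at -0.062. The right end fell inside Mmp12: 86.1% of the gene was covered, and its last 2235 bases lay in the 10.01 kb stretch. The next gene, Mmp1b, another collagenase gene, began 9.44 kb further on and stood at -0.079.

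Inside the segment lay 6 of the 52 coding genes of the window. From left to right they were Pdgfd, Ddi1, Dync2h1 (a dynein motor chain of cilia), Dcun1d5 (a cofactor of cullin neddylation), Mmp13 and Mmp12, and each stood at 3.35. The other 46 coding genes had values of -0.079 to -0.062. The segment cut the metalloproteinase cluster, which spans 7272514 to 7699585: 2 of its 10 Mmp genes were amplified, and the other 8 were at -0.079. Birc2, Birc3 and Yap1 began 460, 489 and 574 kb beyond the end of the segment, on the far side of those 8 genes.

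**Figure D2:**
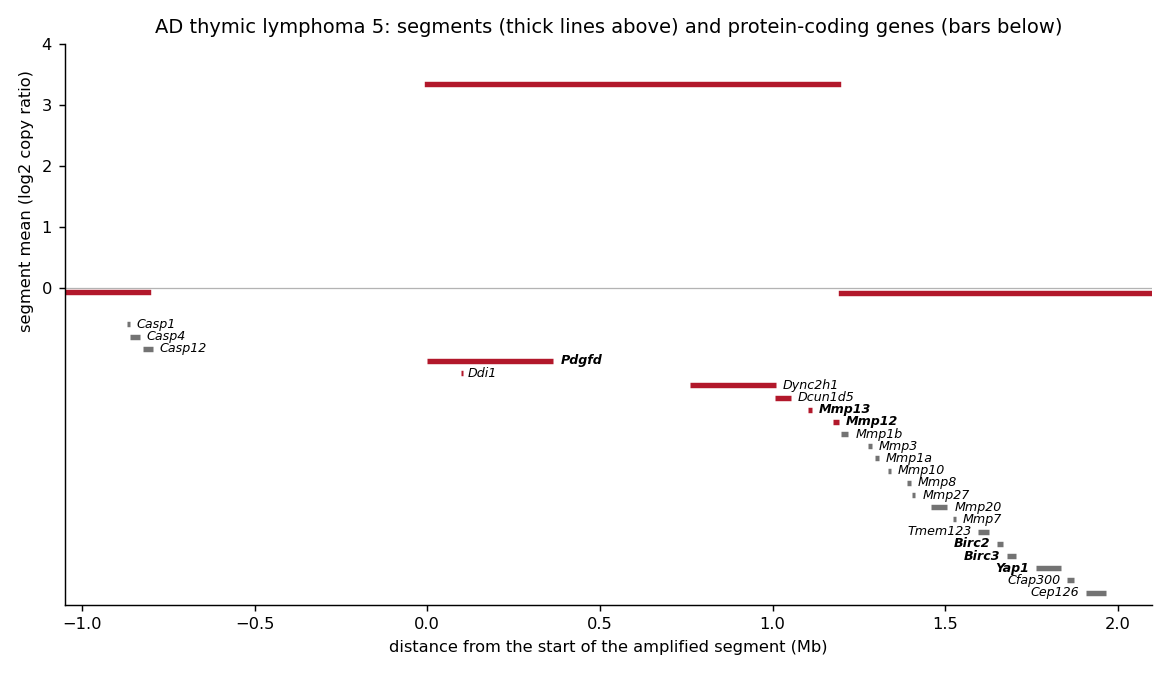
Segment means (thick lines, y axis, log2 copy ratio) of AD thymic lymphoma 5 and, under them, the protein-coding genes (bars, bold for the 6 members, red where they overlap the amplified segment) by distance from the start of the segment (x axis, Mb). Pdgfd to Mmp12 lie under the block at 3.35, and Mmp1b to Yap1 under the neighbouring segment at -0.079; the stretch of 810 kb left of Pdgfd has no segment.

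Pdgfd (6168363 to 6534284, plus strand), the growth factor gene, had log2 copy ratios of -0.056, -0.11, 0.13, 0.042, 3.35, -0.0095 and 0.19 in AD thymic lymphomas 1 to 7. One value stood far above the others, and the remaining 6 were between -0.11 and 0.19. In RP thymic lymphomas 1 to 7 Pdgfd was at -0.087, 0.0093, -0.20, -0.28, -0.0018, 0.39 and 0.45. Here tumours 6 and 7 were the highest and both passed 0.3, and none came near the level of AD thymic lymphoma 5. In the AD sarcomas the values were -0.10, 0.0061, -0.031, -0.082 and 0.011, and in the RP sarcomas -0.028, -0.097, -0.10, -0.072 and -0.020. The sarcoma groups overlapped with each other and together ran from -0.10 to 0.011.

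Mmp13 (7272514 to 7283333, plus strand) and Mmp12 (7344397 to 7360461, plus strand), the protease genes, had the same value as Pdgfd in all 24 tumours, since 1 segment covered the 3 genes each time. The mean of each of the 3 genes was 0.50 ± 1.26 (SD, n = 7) in AD thymic lymphomas, with a median of 0.042. Without AD thymic lymphoma 5 it was 0.03 ± 0.11 (SD, n = 6), so the raised mean rests on that tumour. The means were 0.04 ± 0.28 (SD, n = 7) in RP thymic lymphomas, -0.04 ± 0.05 (SD, n = 5) in AD sarcomas and -0.06 ± 0.04 (SD, n = 5) in RP sarcomas. All groups overlapped.

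Birc2 (7818226 to 7837131, minus strand) and Birc3 (7847468 to 7873205, minus strand), the cIAP genes, differed from Pdgfd in 1 tumour of 24, AD thymic lymphoma 5, where they were at -0.079. Their AD thymic lymphoma values therefore ran from -0.11 to 0.19, with a mean of 0.01 ± 0.11 (SD, n = 7), and their values in the other 3 groups were those of Pdgfd. Yap1 (7931999 to 8004638, minus strand), the Hippo co-activator gene, had the values of Birc2 and Birc3 in all 24 tumours. Birc2, Birc3 and Yap1 were thus amplified in 0 of 24 tumours and gained in 2, RP thymic lymphomas 6 and 7. The order of the 6 genes by mean was Pdgfd, Mmp13 and Mmp12 level in first place and Birc2, Birc3 and Yap1 level behind them in AD thymic lymphomas, and all 6 were level in the other groups.

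**Figure D3:**
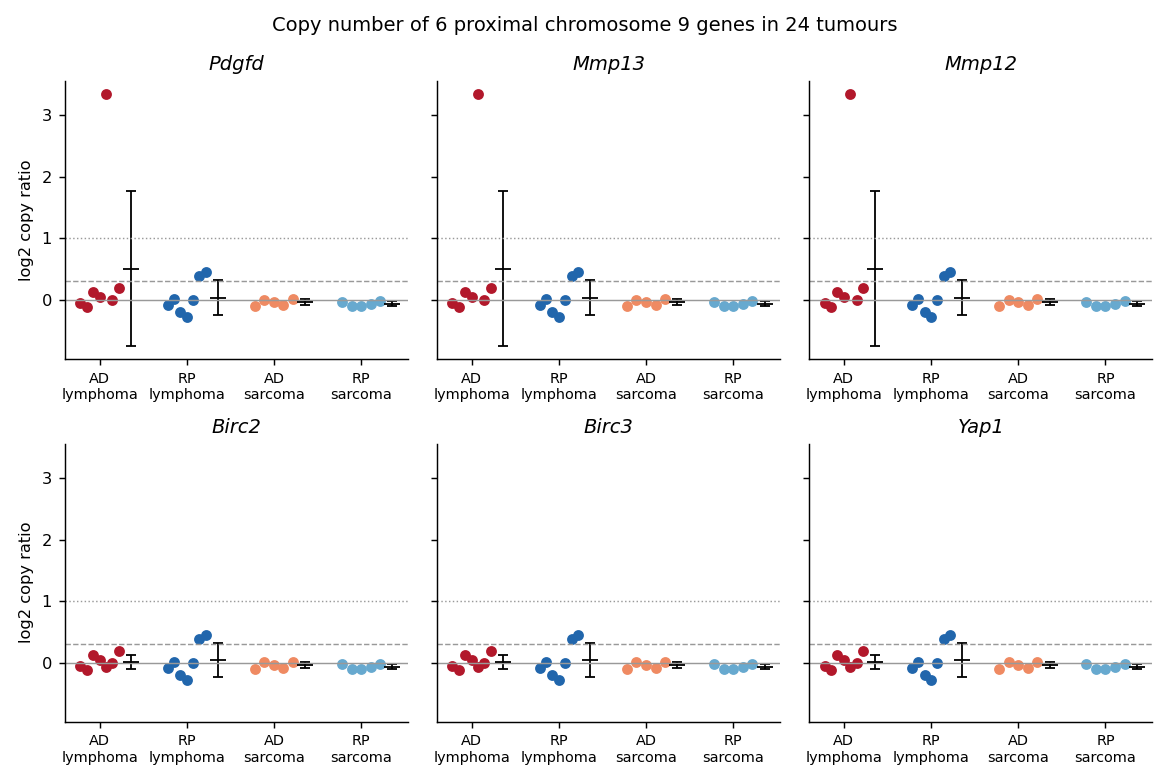
Log2 copy ratio (y axis) of each of the 6 genes in every tumour (points), by group, with the group mean and SD (black bars); lines mark 0, the gain threshold of 0.3 (dashed) and the amplification threshold of 1 (dotted). Pdgfd, Mmp13 and Mmp12 have 1 point at 3.35, which is absent from Birc2, Birc3 and Yap1, and the 2 highest RP lymphomas, at 0.39 and 0.45, recur in all 6 panels.

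Amplified members were thus confined, among the 24 tumours, to 1 of 7 AD thymic lymphomas, with 3 of 6 members. The share of all 20665 genes at 1 or above in at least 1 tumour of a group was 1.05% in AD thymic lymphomas, 0.431% in RP thymic lymphomas, 0.223% in AD sarcomas and 0.382% in RP sarcomas. In AD thymic lymphoma 5 alone it was 0.595%, or 123 genes. Since the amplification itself chose the genes, nothing is read from these shares. No member came near the amplification threshold in that tumour: 3 members stood at 3.35 and the other 3 at -0.079. Members called lost numbered 0 in all 24 tumours.

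The gains of RP thymic lymphomas 6 and 7 were of another kind, since all 6 members were in 1 long segment. In RP thymic lymphoma 6 this segment was 116 Mb long with 11719 markers, at 0.39, and the last segment of the chromosome was at 0.34. In RP thymic lymphoma 7 it was 29.7 Mb long with 2221 markers, at 0.45. A segment of 2 markers at -0.35 followed, then one of 8.32 Mb at 0.40 that ended at 42.8 Mb, after which the chromosome stood at -0.28. Of all genes, 11.2% were at 0.3 or above in RP thymic lymphoma 6 and 12.8% in RP thymic lymphoma 7, so 6 of 6 members belonged there to broad changes that also took in many other genes.

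In the 23 tumours without the block, the segment that held the 6 members was 17.01 to 121 Mb long, with a median of 63.6 Mb and 901 to 12513 markers. Its values ran from -0.28 to 0.45. The values of the 6 genes in those tumours are therefore values of a large piece of the chromosome. In 3 tumours, AD thymic lymphomas 4 and 5 and RP thymic lymphoma 7, the segment around Yap1 ended at the same position, 32754212, inside Ets1, and the next segment started at 33728245, after 0.974 Mb without a segment. A boundary at one position in several tumours also depends on where markers lie, and the part of this was not tested.

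Chromosome 9 of AD thymic lymphoma 5 held further gained blocks. It had 19 segments. Beyond Yap1 the gained segments of at least 10 markers were 35452104 to 36128623 at 0.93 (15 coding genes, Cdon to Gm5916), 40074296 to 40531019 at 1.25 (9 genes, Olfr982 to Gramd1b), 45430292 to 46311555 at 0.39 (16 genes, Dscaml1 to 4931429L15Rik) and 48319390 to 48964745 at 1.86 (10 genes, Nxpe4 to Htr3b). A segment of 3 markers in Kirrel3, 33728245 to 34489103, was at 1.39. Between these blocks the chromosome returned to values of -0.21 to -0.054. The block with Pdgfd, Mmp13 and Mmp12 was the highest and longest of the 5 with at least 10 markers, which together covered 3.85 Mb. Gained segments of at least 10 markers and under 5 Mb, past the first 37.3 kb of the chromosome's segments, numbered 2 in AD thymic lymphoma 7, 1 in AD thymic lymphoma 1 and 0 in the remaining 21 tumours.

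**Figure D4:**
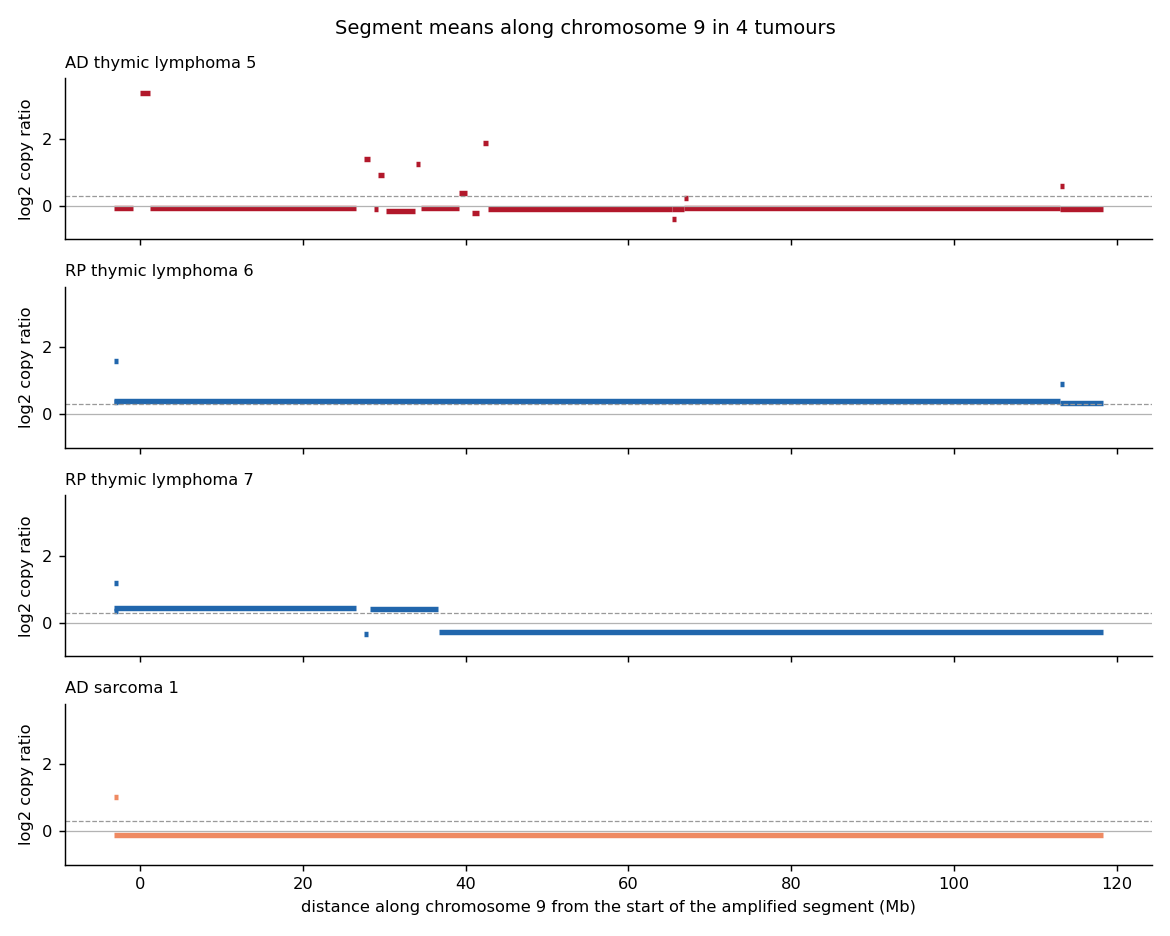
Segment means (y axis, log2 copy ratio) along chromosome 9 by distance from the start of the amplified segment (x axis, Mb) in AD thymic lymphoma 5, RP thymic lymphomas 6 and 7, and AD sarcoma 1, with the gain threshold of 0.3 dashed; segments shorter than 0.5 Mb are drawn 0.5 Mb wide. AD thymic lymphoma 5 shows separate raised blocks on a flat baseline, RP thymic lymphoma 6 is raised throughout, and RP thymic lymphoma 7 drops from 0.40 to -0.28.

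Among all autosomal segments of at least 10 markers at 1 or above, 54 in 16 tumours, the block ranked 9 by height. The 54 include segments that recur between tumours. Without those in the first 37.3 kb of chromosome 9 they numbered 49. On chromosome 2, AD sarcomas 1, 3 and 4 each had a segment with the same ends, 176706853 to 178032800. Of the 8 higher ones 7 were in AD thymic lymphoma 6. The longest of those 8 was 0.92 Mb, against 1.19 Mb. AD thymic lymphoma 5 held 12 of the 54: 5 on chromosome 6, 3 on chromosome 9 and 4 on chromosome 12. The highest there was at 6.33 on chromosome 12, 12937005 to 13633154, which includes the oncogene Mycn (6.33), and the block with Pdgfd came second.

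The first 37.3 kb covered by segments, 3000921 to 3038191, also stood apart from the 6 genes. It had a segment or segments of its own in 20 of 24 tumours, with 19 to 33 markers. The other 4 were AD thymic lymphomas 3, 5 and 6 and RP sarcoma 5. They enter the means with the value of a far longer segment, at 0.13, -0.062, -0.0095 and -0.020. The mean of the 37.3 kb was 0.26 ± 0.33 (SD, n = 7) in AD thymic lymphomas, 0.69 ± 0.32 (SD, n = 7) in RP thymic lymphomas, 0.89 ± 0.19 (SD, n = 5) in AD sarcomas and 0.72 ± 0.44 (SD, n = 5) in RP sarcomas. Group means thus also depend on whether a separate segment was called. The 37.3 kb stood at 0.3 or above in 19 tumours, 10 lymphomas and 9 sarcomas, and at 1 or above in 5. Those 19 include RP thymic lymphomas 6 and 7, whose 6 members were gained as well. RefSeq places 0 genes in it. The nearest, Mir101c, a microRNA gene, starts 478 bases beyond, and the first coding gene, Alkbh8, 297 kb beyond, so that 0 of the 6 members were reached. The number of markers differed between groups. Where 1 segment ran to 3038191, it had 28 markers in AD thymic lymphomas 2, 4 and 7, 27 in RP thymic lymphoma 5 and 33 in RP sarcomas 1, 2 and 3. In the 5 AD sarcomas the first segment ended at 3038035, with 31 markers, and the next began at 3038191. The part of these differences in the values was not tested.

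**Figure D5:**
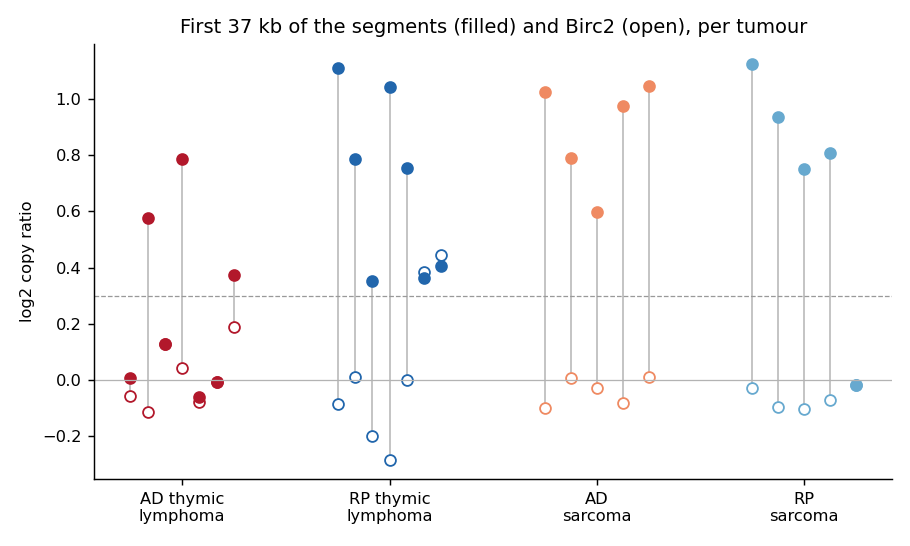
Log2 copy ratio (y axis) of the first 37.3 kb covered by segments (filled points) and of Birc2 (open points) in each tumour, joined by a line and arranged by group, with the gain threshold of 0.3 dashed. The filled points reach 0.3 in 19 of 24 tumours, the open ones in 2.

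Birc2 stood close to the rest of its chromosome in most tumours. Its value and the length-weighted mean of chromosome 9 beyond 15 Mb differed by at most 0.051 in 23 tumours and by 0.55 in RP thymic lymphoma 7. That mean was 0.03 ± 0.12 (SD, n = 7) in AD and -0.04 ± 0.21 (SD, n = 7) in RP thymic lymphomas, a difference of 0.07 (two-sided exact permutation test, p = 0.501, adjusted over both tumour types 0.968). In sarcomas it was -0.04 ± 0.05 (SD, n = 5) in AD and -0.05 ± 0.04 (SD, n = 5) in RP, a difference of 0.0014 (exact permutation p = 0.968, adjusted p = 0.968). The lymphoma difference was 0.0245 without RP thymic lymphoma 4 and 0.136 without RP thymic lymphoma 6. Both differences were smaller than the spread between tumours of a group. The difference between the 2 tumour types in this contrast was 0.064 (permutation test, p = 0.523). In 24 of 24 tumours the segment around Yap1 reached past 15 Mb, so this stretch is not a separate measurement from the genes.

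Across all 20665 genes, 0% were called different between AD and RP thymic lymphomas and 0% between AD and RP sarcomas (exact permutation test, Benjamini-Hochberg adjusted p under 0.05). At an unadjusted p under 0.05 there were 1766 genes (8.55%) in lymphomas and 1047 (5.07%) in sarcomas, and the smallest adjusted p values were 0.469 and 0.557. With limma, 0 genes passed in either tumour type, with 2067 and 2867 at an unadjusted p under 0.05. By permutation, at least 241 genes in lymphomas and 3281 in sarcomas must pass together for any call. Those numbers suffice only if all stand at the smallest possible p, where there were 0 and 20 genes. More genes would be needed at larger p.

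The pathways of the 6 genes were followed in 4 lists of 57 other genes. Of these, 55 are autosomal and were scored. Amotl1, a binding partner of Yap1, lies 6.54 Mb beyond it (14541966 to 14662974) and had the value of Yap1 in 24 of 24 tumours, so it was left out of the counts, which cover 54 genes. In each list 0 genes were called in either tumour type. In thymic lymphomas 5 of the 54 (9.26%) had an unadjusted exact permutation p under 0.05, against 8.55% of all genes, and 4 of these 5, Pdgfa, Pdgfra, Mmp17 and Mob1b, lie on chromosome 5, so they cannot be counted as independent of each other.

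For the PDGF family, 2 of 5 genes had an unadjusted exact permutation p under 0.05 in thymic lymphomas and 0 of 5 in sarcomas. The shares over all genes were 8.55% and 5.07%. The median AD minus RP difference was 0.12 in lymphomas and 0.081 in sarcomas, against 0.043 and 0.012 over all genes. The pair with p under 0.05 was the ligand gene Pdgfa and the receptor gene Pdgfra, both on chromosome 5. Pdgfa stood at 0.37 on average in AD lymphomas and 0.11 in RP lymphomas (difference 0.27, exact permutation p = 0.0128, adjusted p = 0.469), and 4 of 7 AD and 0 of 7 RP tumours were gained. This was not particular to the PDGF family. Mmp17, also on chromosome 5, was gained in 4 of 7 AD and 0 of 7 RP lymphomas, with means of 0.37 and 0.12. Pdgfra also had the highest value of the list, 1.39 in AD sarcoma 1. Pdgfrb, the gene of the receptor that PDGF-D binds, had the lowest, -0.54 in AD thymic lymphoma 6. In AD thymic lymphoma 5, the tumour with amplified Pdgfd, Pdgfrb was at -0.53. This was not particular to that tumour: Pdgfrb was called lost in 4 of 7 AD and 4 of 7 RP thymic lymphomas. Its means there were -0.29 and -0.35.

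Among matrix metalloproteinases and their inhibitors outside the cluster, 1 of 15 genes, Mmp17, had an unadjusted p under 0.05 in lymphomas and 0 of 15 in sarcomas. The list's median difference was 0.044 and 0.014. Its highest value was that of the membrane-type gene Mmp23, 0.93 in AD sarcoma 2, and its lowest that of Mmp15, -0.76 in AD thymic lymphoma 3.

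Among genes of IAP and TNF receptor signalling, 0 of 15 had an unadjusted p under 0.05 in either tumour type, with median differences of 0.0049 and -0.0037. Traf3, an adaptor that works with the cIAP proteins, was highest at 3.95 in AD thymic lymphoma 6, a tumour where Birc2 and Birc3 were at -0.0095. Diablo, which encodes an antagonist of IAP proteins, was lowest at -0.92 in AD thymic lymphoma 2. In the Hippo pathway 2 of 19 genes, the upstream kinase gene Stk3 and the cofactor gene Mob1b, had an unadjusted p under 0.05 in lymphomas and 0 of 19 in sarcomas, with median differences of 0.044 and -0.0059. Stk3 was highest at 0.98 in RP thymic lymphoma 4. The Yap1 target gene Ankrd1 was lowest at -0.66 in AD thymic lymphoma 5, where Yap1 was at -0.079.

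The genes outside chromosome 9 whose values over the 24 tumours were most like the mean of the 6 members were Ddx1 and Nbas on chromosome 12, next to Mycn, each with a Pearson r of 0.885. Next came Bcat1, Lrmp and Casc1 on chromosome 6, with 0.786, a value that 10 genes shared. Each lay in an amplified segment of AD thymic lymphoma 5, at 6.33 for Ddx1 and Nbas and 2.20 for Bcat1, Lrmp and Casc1. Spearman's rho was -0.14 for Ddx1 and Nbas and -0.23 for Bcat1, Lrmp and Casc1. Without AD thymic lymphoma 5 and RP thymic lymphoma 7, the tumours farthest from the median, r over the other 22 was -0.19 for Ddx1 and Nbas and -0.22 for Bcat1, Lrmp and Casc1. In a step chosen after seeing the data, each of the pair was left out alone. Without AD thymic lymphoma 5, r over 23 tumours was -0.23 for Ddx1 and Nbas and -0.35 for Bcat1, Lrmp and Casc1, and without RP thymic lymphoma 7 it was 0.92 and 0.85. The likeness thus rests on AD thymic lymphoma 5. The values of genes in 1 segment are the same number, so these are descriptions and carry no p.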

How the data were processed

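Exome sequencing data of 24 mouse tumours were used; 4 ear samples labelled as normal controls were not analysed here. The build GRCm38 and the tools GATK 4.1.0.0, BWA 0.7.17 and Trim Galore 0.6.5 come from the submitters' processing notes, which here carry no roles. Per the file headers, the deposited tables give for each segment its position, its mean and how many markers it holds (a number of positions, not of reads). The deposited means have values below 0 and were read as log2 copy ratios; their log base is not named. What DNA served for comparison, how values were centred and whether normal cells were corrected for is not given in the sources used here. Admixed normal cells would draw a tumour's values towards 0.

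The 6 genes, the pathway lists and the window were chosen with earlier results of these data known. A gene took the overlap-weighted mean of its segments, or the nearest segment if none overlapped it, at RefSeq GRCm38.p6 positions. Genes named are the 6 members, those nearest each end of the amplified segment, the highest and lowest of each list, and the 5 most like the members; genes of small counts and block ends were named after their values were seen. Two-sided exact permutation tests compared group means, over 3432 splits (7 against 7, smallest p 0.000583) or 252 splits (5 against 5, smallest p 0.00794), adjusted by Benjamini-Hochberg. The interaction used 100000 resamples. limma was an alternative, and the tests were tested on simulated data. Alternatives changed the gene value, short segments, thresholds, centring and tumours included. Tools were Python 3.11.15, numpy 2.4.6, pandas 2.3.3, scipy 1.17.1, matplotlib 3.10.9 and limma 3.58.1. Each tumour is 1 sample with a number of its own in its title, and the 4 ear samples each carry the number of a tumour. P-values measure the spread between these samples. Marker numbers differed between groups, as given for the start of chromosome 9. The part of this in the AD against RP comparisons was not tested and cannot be told apart from genotype.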

Additional observations from a re-analysis of the deposited data

Results flagged for a closer look

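In AD thymic lymphomas, tumour 5 stood apart from the other 6 for Pdgfd, Mmp13 and Mmp12, each at a log2 copy ratio of 3.35, by the size of the gap to the nearest tumour. This is a description and not a test, since that value chose the genes. The 3 results are 1 segment and not separate events. The rate of about 1 in 20 groups in which chance sets a tumour apart does not apply to genes chosen this way, or to genes that share their values in 23 tumours.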

How the results depend on the processing

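The count of genes called between AD and RP tumours was 0 under all 32 settings tried, limma, centring and each left-out tumour included. Of 240 recomputed member means, 237 moved by less than 1 SD between tumours. The other 3 were the AD thymic lymphoma means of Birc2, Birc3 and Yap1, which rose to 0.127 when each tumour was centred on its autosomal median. Centring also took the RP thymic lymphoma means of all 6 genes from 0.038 to 0.159, which is within their wide SD of 0.28, and those means turned to -0.020 without RP thymic lymphoma 6 and to -0.030 without RP thymic lymphoma 7. Leaving out AD thymic lymphoma 5 took the mean of Pdgfd, Mmp13 and Mmp12 from 0.50 to 0.03. This shift still counts among the 237, since that tumour itself makes the SD of 1.26. Leaving out 1 tumour cannot move a group mean by 1 SD, so those settings could not have failed this measure. The 6 genes share their values in 23 tumours, so the 240 means are not separate checks. The sarcoma difference in the rest of chromosome 9, 0.0014, ran from -0.0132 to 0.0151 with 1 tumour left out, turning sign without AD sarcoma 2 or 5 or RP sarcoma 2, 3 or 4, and it kept its direction in 8 of 13 settings. The lymphoma difference, 0.065, kept its direction in 17 of 17 settings but ran from 0.0245 to 0.136 with 1 tumour left out. It moved by over 1.5 times without AD thymic lymphoma 7 (0.034) or RP thymic lymphoma 3 (0.039), 4 (0.0245) or 6 (0.136). With centring, 2 AD thymic lymphomas instead of 1 had a gained member, the second being AD thymic lymphoma 7, at 0.19 before an autosomal median of -0.25 was taken off. At a threshold of 0.5 the RP thymic lymphomas with a gained member fell from 2 to 0. The other 30 of 32 counts of tumours held. No paired analysis of AD with RP tumours was possible, because tumours of the different genotypes come from different mice and replicate numbers follow sample order only. Exome markers leave stretches unmeasured, 810 kb left of the amplified segment among them. Read depth is unknown, and 1 amplified tumour gives no estimate of how often such a block occurs in either genotype.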
